A study of Equus caballus with 26 samples.

Results

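The 9 receptors described here steer leukocytes between marrow, lymphoid tissue, blood and inflamed tissue, and their transcripts were measured in the whole blood of endurance horses before and after an endurance ride of 160 km: *CXCR4*, *S1PR1*, *CXCR5*, *CCR6*, *CXCR3*, *CXCR6*, *CCR1*, *CCR2* and *CX3CR1*. They were looked for among the 24415 gene names of an equine array. A gene was found by symbol, by its LOC gene number in a RefSeq gene table, or by gene name in the probe description. A probe was found for 8 of the 9, and none for *CXCR5*, the receptor that takes B cells and follicular helper T cells into B cell follicles. RNA came from blood drawn into PAXgene tubes at rest (T0) and immediately after the competition (T1), and 26 arrays of 23 horses were used. The study's methods describe its horses as Arabians and Arabian crosses, whereas the labels give every breed as Autre. The experimental set held 3 geldings, numbered 2, 32 and 41, each with an array at both times. Both sets were larger in the study, and its other horses were not analysed here. The validation set held 7 horses with an array at T0 only (3 females and 4 geldings) and 13 other horses with an array at T1 only (3 females and 10 geldings). The labels name no treatment and give no ages. By the study's methods every validation horse of T1 finished the ride, whereas 10 of its 13 validation horses of T0 were eliminated and 3 finished. At most 3 of the 7 horses of T0 used here can thus have finished, so that time and outcome cannot be fully told apart in that set.

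Chemokine receptors and S1PR1 are membrane receptors that signal through inhibitory G proteins, and each cell type carries its own combination of them. CXCR4 holds neutrophils and progenitors in the marrow through CXCL12, S1PR1 draws lymphocytes out of lymphoid tissue towards the sphingosine 1-phosphate of the blood, and CCR6 takes B cells and some T cells to mucosal lymphoid tissue. CXCR3 and CXCR6 mark effector T cells and NK cells, while CCR1, CCR2 and CX3CR1 guide monocytes, with CX3CR1 present on cytotoxic lymphocytes as well. In whole blood, fewer cells of a type and less RNA per cell cannot be told apart.

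A level is the log2 signal of a gene's brightest probe minus the 75th percentile of the array, so that it is read between arrays of 1 gene and not between genes. The scanner software called between 60.4% and 75.4% of the spots of an array well above background. T1 was compared with T0 in each set by limma over all gene names that exceeded background clearly on 3 or more of the 6 experimental, or 7 or more of the 20 validation arrays, with Benjamini-Hochberg adjustment over all of them. The T0 array of validation horse 47 had the lowest T cell and NK cell marker levels and the highest monocyte and neutrophil levels of the 7 at T0. For *CXCR3* and the T cell and NK cell markers the lowest level of T0 is also given without it. For *CX3CR1* the change is also given without that horse. For the presence of leukocyte RNA 5 leukocyte genes were listed, of which 4 had a probe and were tested in both sets. *ITGB2*, *CORO1A*, *LCP1* and *LAPTM5* had group means of at least 4.30 on the log2 scale. Such levels cannot tell whole blood from separated leukocytes, so the label of whole blood was not tested.

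Of the 8 receptors, 6 were tested in the experimental set, and 2 of these, *CXCR3* and *CX3CR1*, were under-expressed at T1 while none was over-expressed. In that set, 10.3% of all gene names tested differed at an adjusted p under 0.05, 6.28% being higher and 4.03% lower at T1. In the validation set 5 receptors were tested, and the same 2 were under-expressed and none over-expressed, where 44.2% of all gene names differed, 20.3% higher and 23.9% lower. The median log2 change of the receptors tested was -0.15 in the experimental set and 0.04 in the validation set, beside medians of 0.03 and -0.07 over all gene names. The receptors of marrow retention and tissue egress, *CXCR4* and *S1PR1*, and the monocyte receptor *CCR2* did not pass the test in either set. The other 3 receptors, *CCR6*, *CXCR6* and *CCR1*, were dim, being well above background on 6, 8 and 5 of the 26 arrays.

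**Figure D1:**
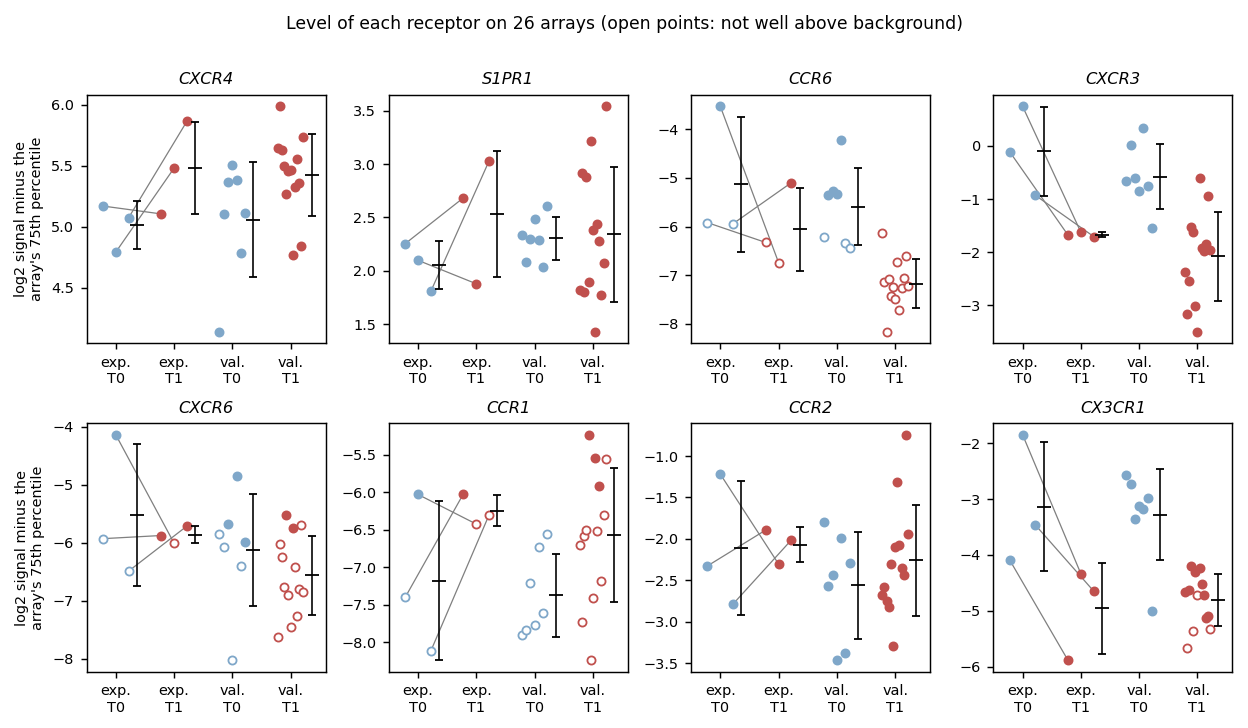
Level of each of the 8 receptors with a probe (log2 signal after subtraction of the 75th percentile of its array) on each array of the experimental (exp.) and validation (val.) sets at T0 (blue) and T1 (red). Filled points were well above background, open points were not, grey lines join the arrays of a horse, and black bars give the mean and SD of the group. *CXCR3* fell below its T0 level in all 3 paired horses, as did *CX3CR1*, and for *CCR6* all 13 validation arrays of T1 are open.

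*CXCR4*, the marrow retention receptor, was measured by 3 overlapping probes of 60 bases under the gene name LOC100050974, and the brightest stood for the gene. Another oligonucleotide, designed separately and spotted under the name *CXCR4*, has 50 bases. It is shown because it is a separately designed measure of the same gene, and its letters are open in 2 of the 3 reading frames.
CXCR4 oligonucleotide: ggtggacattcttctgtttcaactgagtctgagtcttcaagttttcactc

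In the experimental set the *CXCR4* level was 5.17 at T0 and 5.11 at T1 in horse 2, 4.79 and 5.48 in horse 32, and 5.08 and 5.87 in horse 41. The level was thus higher at T1 in horses 32 and 41 and nearly equal in horse 2. Among the validation horses it ran from 4.14 over a median of 5.11 to 5.51 at T0, and from 4.77 over 5.47 to 5.99 at T1. These ranges overlapped, and 5 of the 13 horses of T1 lay above the highest of T0. The log2 change was 0.47 (SE 0.33; adjusted p = 0.374) in the experimental set and 0.37 (SE 0.18; adjusted p = 0.106) in the validation set by limma, with 95% intervals of -0.28 to 1.23 and -0.01 to 0.75. The 3 probes of LOC100050974 gave 0.44 to 0.52 in the experimental and 0.34 to 0.42 in the validation set, and the separate oligonucleotide gave 0.38 (SE 0.33) and 0.30 (SE 0.17). Quantile normalization in place of the 75th percentile lowered the change to 0.10 and 0.09.

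*S1PR1*, the egress receptor, had 7 probes of 60 bases that overlap each other at the end of its coding sequence. The brightest is printed because it shows where on the transcript all 7 lie. It ends with an in-frame stop codon, in capitals, and lies at chr5:38010730-38010789 on the minus strand in the coordinates of the array design, whose file headers name the build EquCab1.
S1PR1 probe: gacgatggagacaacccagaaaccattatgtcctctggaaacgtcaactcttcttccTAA

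The *S1PR1* level was 2.25 at T0 and 2.68 at T1 in horse 2, 2.10 and 1.88 in horse 32, and 1.81 and 3.03 in horse 41, so that the horses did not move in 1 direction. Validation levels ran from 2.04 over a median of 2.30 to 2.60 at T0, and from 1.43 over 2.28 to 3.54 at T1. The medians were nearly the same, but the horses of T1 were spread wider, with an SD of 0.63 (n = 13) beside 0.20 (n = 7) at T0. Of the 13 horses of T1, 4 lay above the highest and 5 below the lowest level of T0. The log2 change was 0.48 (SE 0.37; adjusted p = 0.413) in the experimental set and 0.04 (SE 0.24; adjusted p = 0.915) in the validation set by limma. Without horse 32 the experimental change was 0.83, and without horse 41 it was 0.11, neither past the threshold. The 7 probes gave 0.48 to 0.58 in the experimental set and 0.01 to 0.06 in the validation set.

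*CCR6*, the mucosal homing receptor of the lymphoid group, was near background. Its only probe, named from the description, also ends with a stop codon, in capitals, and lies at chr31:2908706-2908765 on the minus strand of the same coordinates. It is shown because *CCR6* is the only dim receptor for which a fold against background could be given.
CCR6 probe: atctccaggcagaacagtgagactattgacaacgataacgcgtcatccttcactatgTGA

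In the validation set *CCR6* had a signal well above background in 4 of 7 horses at T0 and in 0 of 13 at T1. Its level ran from -6.45 over a median of -5.34 to -4.23 at T0, and from -8.17 over -7.22 to -6.13 at T1, where 12 of 13 horses lay below the lowest of T0. The measured means were -5.60 and -7.17. Since no array of T1 was well above background, each was raised to the lowest level well above background on its array. Against that bound the mean of T1 was 1.65-fold lower. This is no strict minimum, as the mean of T0 includes horses whose signal was not well above background. *CCR6* was left out of the validation test by the filter, and no log2 change or p is given against arrays that were all near background. In the experimental set the level was -5.92 at T0 and -6.33 at T1 in horse 2, -3.53 and -6.74 in horse 32, and -5.94 and -5.10 in horse 41. The level was thus lower in horses 2 and 32, the T0 array of horse 32 holding the strongest *CCR6* signal of all, and the level was higher at T1 in horse 41. *CCR7*, which takes naive T cells and dendritic cells into lymph nodes through CCL19 and CCL21, was well above background on all 26 arrays. It was under-expressed at T1 in the validation set, with a log2 change of -1.05 (SE 0.36; adjusted p = 0.0209), and its change of -0.999 (SE 0.48; adjusted p = 0.197) in the experimental set did not pass the test.

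*CXCR3*, the receptor that effector T cells and NK cells follow to interferon-induced chemokines, fell in both sets. Its probe of 60 bases lies on the unplaced sequence chrUn:262007832-262007891, minus strand, and is open in 2 reading frames. It is printed, as is the probe of *CX3CR1* further on, because the 2 receptors that passed the test rest on a single probe each.
CXCR3 probe: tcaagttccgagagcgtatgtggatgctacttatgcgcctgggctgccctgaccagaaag

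In the experimental set the *CXCR3* level was -0.11 at T0 and -1.68 at T1 in horse 2, 0.74 and -1.62 in horse 32, and -0.93 and -1.70 in horse 41. All 3 horses fell, by 1.57, 2.37 and 0.77 on the log2 scale, and the SD of their levels was 0.84 at T0 and 0.04 at T1 (n = 3 each). Among the validation horses the level ran from -1.55 over a median of -0.67 to 0.34 at T0, and from -3.50 over -1.96 to -0.60 at T1. The groups overlapped, with 10 of 13 horses of T1 below the lowest of T0, which was horse 47. Without that horse the lowest level of T0 was -0.85, and 12 of 13 horses of T1 lay below it. Leaving out the lowest horse can only raise this count. The log2 change was -1.57 (SE 0.38; adjusted p = 0.0365), 2.97-fold lower, in the experimental set and -1.49 (SE 0.34; adjusted p = 0.0013), 2.82-fold lower, in the validation set by limma. The change was negative within all 5 scan days and all 3 slides that held validation arrays of both times, from -3.84 to -0.99. These slides were scanned on days already counted, so the slide values are not separate from those of the days. A day held only 1 or 2 such arrays of T0 and 1 to 4 of T1.

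The experimental call of *CXCR3* rested on the horses: without horse 2 the adjusted p was 0.133 and without horse 32 it was 0.139, with changes of -1.57 and -1.17. In the validation set the call was lost among the 14 geldings, where the change was -0.95 (adjusted p = 0.117). The geldings had mean levels of -0.96 at T0 (n = 4) and -1.91 at T1 (n = 10), and the females of -0.08 (n = 3) and -2.64 (n = 3). A difference of the change between the sexes was not tested. Among the geldings B cell markers were lower for 2 of 10 genes and T cell markers for 7 of 10, where 1754 of 16560 gene names were lower.

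*CXCR6*, the receptor of resident and effector T cells for CXCL16, was well above background on 3 of the 6 experimental and 5 of the 20 validation arrays, and was thus tested in the experimental set only. Its level was -5.93 at T0 and -5.87 at T1 in horse 2, -4.14 and -6.004 in horse 32, and -6.49 and -5.71 in horse 41, so that horse 32 alone was clearly lower. The log2 change was -0.35 (SE 0.49; adjusted p = 0.669 by limma). Validation levels ran from -8.03 over -5.99 to -4.85 at T0 and from -7.62 over -6.77 to -5.52 at T1, and the ranges overlapped nearly in full. With no filter the validation change was -0.43 (SE 0.35; adjusted p = 0.376).

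*CX3CR1*, the fractalkine receptor of patrolling monocytes and cytotoxic lymphocytes, also fell in both sets. Its probe lies at chr16:46110839-46110898 on the plus strand and is open in all 3 reading frames.
CX3CR1 probe: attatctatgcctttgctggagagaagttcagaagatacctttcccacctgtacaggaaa

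In the experimental set the *CX3CR1* level was -4.09 at T0 and -5.88 at T1 in horse 2, -1.85 and -4.34 in horse 32, and -3.47 and -4.65 in horse 41. All 3 horses fell, by 1.79, 2.48 and 1.18 on the log2 scale. The lowest level of T0, -4.09 in horse 2, lay close above the highest of T1, -4.34 in horse 32. In the validation set the level ran from -5.01 over a median of -3.12 to -2.57 at T0, and from -5.65 over -4.71 to -4.19 at T1. Of the 7 horses of T0, 6 lay above the highest of T1, and horse 47 lay within the range of T1 at -5.01. The log2 change was -1.82 (SE 0.36; adjusted p = 0.0192), 3.53-fold lower, in the experimental set and -1.53 (SE 0.27; adjusted p = 0.000145), 2.89-fold lower, in the validation set by limma. Without horse 47 the validation change was -1.82 (adjusted p = 7.18e-07 by limma). Leaving out the lowest level of T0 can only make the fall larger, so this value is no separate support. The change was negative within all 5 scan days, from -2.28 to -0.43, and on 2 of 3 slides, which share their arrays with these days. The exception was the slide that held horse 47 and 1 array of T1 (0.71).

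The experimental call of *CX3CR1* was lost without horse 2 (adjusted p = 0.0942) and without horse 32 (adjusted p = 0.0655), with changes of -1.83 and -1.49, and without the horse as a block (adjusted p = 0.0959). The size of the change depended on how background was handled, as the receptor was well above background on 9 of the 13 validation arrays of T1. The normexp correction, which adds an offset of 50 and so shrinks the changes of dim probes, together with quantile normalization gave -0.25 (adjusted p = 0.242) in the experimental and -0.21 (adjusted p = 0.000366) in the validation set, and the authors' own log2 values gave -0.53 (adjusted p = 0.132) and -0.48 (adjusted p = 0.000476). Quantile normalization alone gave -1.87 (adjusted p = 0.0166) and -1.38 (adjusted p = 0.000154). For *CXCR3* the values with normexp and quantile normalization were -1.01 (adjusted p = 0.135) and -0.74 (adjusted p = 0.00125).

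**Figure D2:**
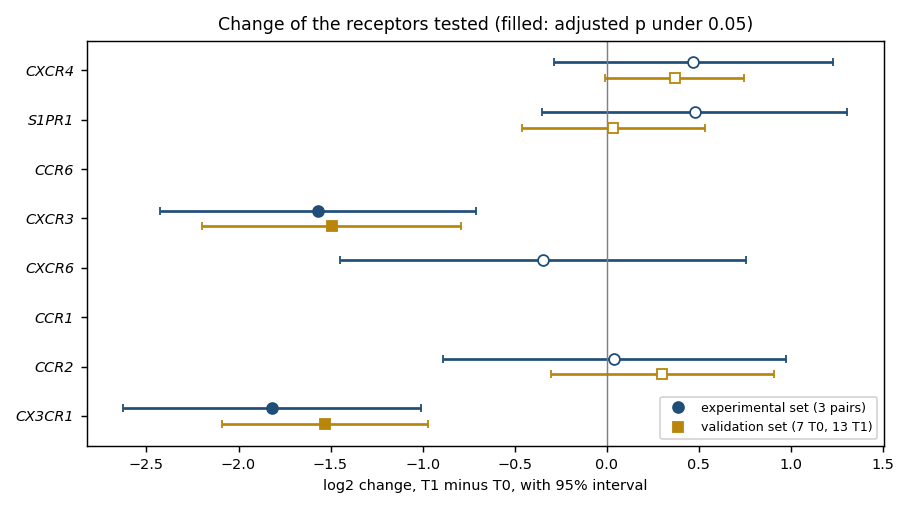
Log2 change (T1 minus T0) with its 95% interval by limma for each receptor that was tested, in the experimental set (circles, 3 paired horses) and the validation set (squares, 7 and 13 horses). Filled symbols had an adjusted p under 0.05: these were *CXCR3* at -1.57 and -1.49 and *CX3CR1* at -1.82 and -1.53, whose intervals lie below 0 in both sets. *CCR6* and *CCR1* were tested in neither set.

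*CCR2*, the receptor that brings classical monocytes out of the marrow towards CCL2, was well above background on all 26 arrays. Its level was -2.33 at T0 and -1.89 at T1 in horse 2, -1.22 and -2.30 in horse 32, and -2.79 and -2.01 in horse 41, so that horses 2 and 41 were higher and horse 32 was lower at T1. Validation levels ran from -3.47 over a median of -2.43 to -1.80 at T0, and from -3.30 over -2.35 to -0.74 at T1. The groups overlapped, with 2 of 13 horses of T1 above the highest of T0. The log2 change was 0.04 (SE 0.41; adjusted p = 0.957) in the experimental set, with a 95% interval of -0.89 to 0.97, and 0.30 (SE 0.29; adjusted p = 0.426) in the validation set, with an interval of -0.30 to 0.91, by limma. Leaving out horse 32 turned the experimental value to 0.60 and leaving out horse 41 to -0.33.

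The 3 probes of *CCR2* gave nearly the same changes, between -0.05 and 0.04 in the experimental set and between 0.24 and 0.30 in the validation set.

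*CCR1*, a receptor of monocytes and neutrophils for CCL3, CCL5 and CCL15, was well above background on 1 of 3 experimental arrays at each time, on 0 of 7 validation arrays at T0 and on 3 of 13 at T1. In the experimental set its level was -7.40 at T0 and -6.02 at T1 in horse 2, -6.03 and -6.43 in horse 32, and -8.12 and -6.30 in horse 41. Validation levels ran from -7.90 over -7.61 to -6.56 at T0 and from -8.23 over -6.52 to -5.24 at T1, where 7 of 13 horses lay above the highest of T0 and 1 below the lowest. No fold can be given, as the mean of T1 lay under the background bound of T0.

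Of the receptors, 4 share a chromosome on the array design. On chromosome 16, the probe of *CCR2* is followed by that of *CCR1* after 127.6 kb, by that of *CXCR6* after a further 176.7 kb and by that of *CX3CR1* after a further 5378.5 kb. In this row *CX3CR1* was lower at T1 in all 3 experimental horses. *CCR2* and *CCR1* were higher at T1 in horses 2 and 41 and lower in horse 32. *CXCR6* was nearly equal in horse 2, higher in horse 41 and lower in horse 32. The levels of *CCR1* and *CXCR6* were near background. In the validation set the log2 change was 0.30 for *CCR2* and, with no filter, -0.43 for *CXCR6*, neither past the threshold.

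The change of a receptor was compared between the sets by fitting all 26 arrays together, horse entering as a random block. All 8 receptors could be tested there, and 0 differed at an adjusted p under 0.05, where 0% of the 19265 gene names tested did and 156 had an unadjusted p under 0.05. The smallest unadjusted p of the 8 was 0.349, for *CCR6*. For *CXCR3* the experimental change minus the validation change was -0.08, with a 95% interval of -1.48 to 1.33, and for *CX3CR1* it was -0.29 (-1.62 to 1.04). These intervals reach beyond a log2 difference of 1 on either side, and differences of that size between the sets were not detectable with these arrays.

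Marker genes of lymphocytes were lower at T1 beside *CXCR3* and *CX3CR1*. Over all gene names tested, 4.03% were lower in the experimental set and 23.9% in the validation set. T cell markers were lower at T1 for 5 of 10 genes tested in the experimental set and 9 of 10 in the validation set, with median log2 changes of -1.15 and -1.16. Their mean level on an array ran from 0.93 to 1.42 at T0 and from 0.07 to 0.14 at T1 in the experimental set, and from 0.27 to 1.37 and from -0.69 to 0.51 in the validation set. NK and cytotoxic cell markers were lower for 6 of 11 in the experimental set, and in the validation set 9 of 11 were lower and 1, *NCR1*, was higher. Their mean level ran from -0.07 to 0.51 at T0 and from -1.49 to -0.77 at T1 in the experimental set, and from -0.84 to 0.82 and from -1.22 to -0.25 in the validation set. B cell markers were lower for 5 of 10 and 9 of 10. Without horse 47 the lowest validation levels of T0 were 0.67 for the T cell and -0.12 for the NK and cytotoxic cell markers. That horse was set apart for its levels on these lists, so no separation of T0 and T1 is read from these values. The part of these cells in the falls of *CXCR3* and *CX3CR1* was not tested.

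Monocyte markers moved the other way from *CX3CR1*, being higher for 4 of 10 genes in the experimental set, and in the validation set 5 of 10 were higher and 1 was lower. Their mean level ran from 1.24 to 1.70 at T0 and from 2.45 to 2.74 at T1 in the experimental set, and from 1.25 to 2.30 and from 2.13 to 3.08 in the validation set. Neutrophil markers were higher for 4 of 8 genes in the experimental set and 6 of 8 in the validation set, and those of immature neutrophil granules for 4 of 5 in both. Over all gene names tested, 6.28% were higher in the experimental set and 20.3% in the validation set. Markers of platelets passed the test for 0 of 5 genes in either set, those of red cells for 1 of 3 (*HBB*, higher) in both. *SLC4A1* and *EPB42* of the red cell list were not well above background on any array.

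Over the 26 arrays, after the mean of its group was taken from each value, the *CXCR3* level had a Pearson r of 0.69 with the T cell level, 0.66 with the B cell level and 0.07 with the NK and cytotoxic cell level. The *CX3CR1* level had an r of 0.64 with the NK and cytotoxic cell level, 0.56 with the T cell level and -0.54 with the monocyte level. For *CCR2* the r with the monocyte level was 0.38, and for *CXCR4* no cell list had an r above 0.32. For *S1PR1* the highest r was 0.53, with the immature granule level. These values describe arrays that share their scaling to the 75th percentile and carry no test.

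**Figure D3:**
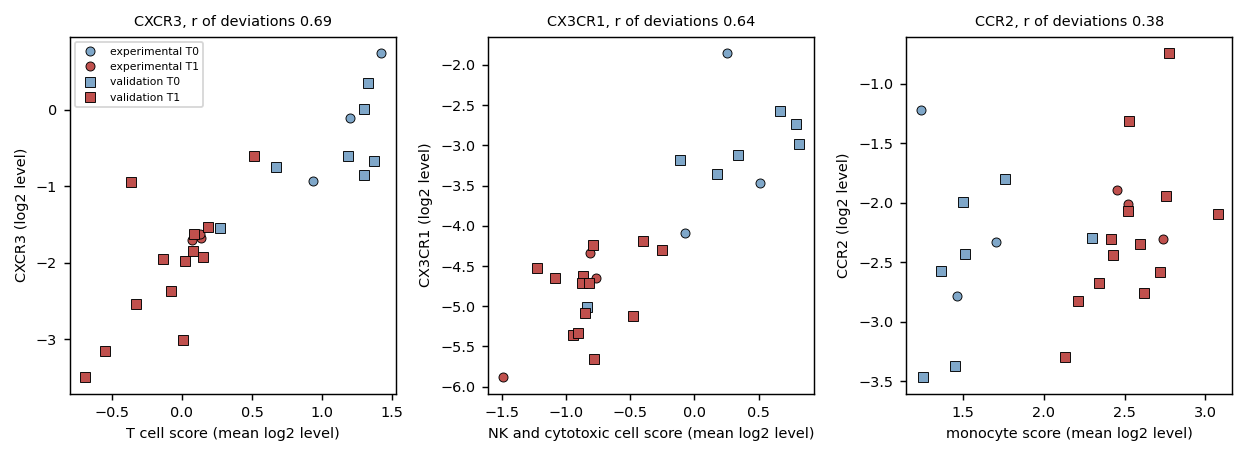
Log2 level of *CXCR3*, *CX3CR1* and *CCR2* on each of the 26 arrays against the mean log2 level of the T cell, NK and cytotoxic cell and monocyte markers. Circles are experimental and squares validation arrays, blue at T0 and red at T1, and the r above each plot is that of the deviations from the group means (0.69, 0.64 and 0.38). Most T1 arrays lie at the lower left of the T0 arrays in the first 2 plots, the T0 array of horse 47 lying among them, and the monocyte level is higher at T1 with no such shift in *CCR2*.

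Among themselves the receptors had r from -0.53, between *CXCR4* and *CCR2*, to 0.66, between *CXCR6* and *CCR2*, on the same deviations. *CXCR3* had an r of 0.58 with *CCR2*, 0.62 with *CCR1* and 0.36 with *CX3CR1*, and *CXCR4* had 0.39 with *S1PR1*. The gene whose deviations were most like those of *CXCR3* among 10181 gene names was *STING1* (r 0.91), for *CX3CR1* *NCR3* (0.83) and *CRTAM* (0.82), for *S1PR1* the histone gene *H2BC5* (0.83), for *CXCR4* *KDM6A* (0.76), and for *CCR2* *ZNF629* (0.85). For the dim receptors these were *USP7* with *CCR1* (0.87), *EMC1* with *CXCR6* (0.80) and *RECQL4* with *CCR6* (0.70).

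A list of 17 other chemokine and chemoattractant receptors had 16 with a probe. Of 13 tested in each set, 2 were lower and 2 higher in the experimental set, and 7 were lower and 1 higher in the validation set, with median log2 changes of -0.84 and -0.61. Over all gene names 10.3% and 44.2% passed, 4.03% and 23.9% being lower. *CCR3*, the eotaxin receptor of eosinophils and basophils, was 4.44-fold lower in the experimental set (adjusted p = 0.0365) and 2.71-fold lower in the validation set (adjusted p = 0.000195 by limma). *GPR183*, the oxysterol receptor that positions B cells and T cells within lymphoid tissue, was 2.63-fold (adjusted p = 0.0372) and 2.60-fold lower (adjusted p = 1.67e-05). *CXCR2*, the neutrophil receptor for CXCL8, was the only one of the list higher in both sets, by 2.27-fold (adjusted p = 0.0449) and 2.07-fold (adjusted p = 0.000915). The decoy receptor *ACKR2*, named after its values were seen, was the other one called higher in the experimental set. Its 3 arrays of T0 were not well above background, and the bound of at least 3.58-fold holds for the signal used here only. *ACKR2* passed the filter only through its arrays of T1, so that this call could hardly be other than higher.

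Among the brightest others, *CCR10*, a skin homing receptor, was lower in the validation set (log2 change -0.71, SE 0.25, adjusted p = 0.0249) and had -1.13 (SE 0.31, adjusted p = 0.0539) in the experimental set. *CCR9*, the gut homing receptor, had -0.84 (SE 0.35, adjusted p = 0.151) and -0.52 (SE 0.26, adjusted p = 0.105), and *CCRL2* had 0.01 (SE 0.32) and -0.29 (SE 0.25). The number of the list called in the experimental set ran from 0 to 7 over the other ways of processing. With normexp and quantile normalization together, *CCR3* and *CXCR2* kept their direction but lost that call (adjusted p = 0.156 and 0.080). The log2 change of *CCR3*, -2.15 in the experimental and -1.44 in the validation set as reported, was then -0.72 and -0.41. *ACKR2* had an experimental change of 0.12 there and of 0.28 with the authors' values, neither past the threshold. With quantile normalization alone *CXCR2* was also lost (adjusted p = 0.0832) and *CCR3* was not (adjusted p = 0.0393).

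The genes that handle sphingosine 1-phosphate are the other side of the *S1PR1* pathway. Of 8 tested in each set, 0 passed by limma in the experimental set, where 10.3% of all gene names did and 1 of the 8 had an unadjusted p under 0.05. In the validation set 2 of 8 passed, where 44.2% of all gene names did. *SGPL1*, the lyase that degrades sphingosine 1-phosphate, was higher in that set (log2 change 0.45, SE 0.12, adjusted p = 0.00477), and *SGPP1*, a phosphatase of the same lipid named after its values were seen, was lower at -0.61 (SE 0.19; adjusted p = 0.0109 by limma). *S1PR4*, a sphingosine 1-phosphate receptor of lymphoid cells, had 0.01 (SE 0.34) in the experimental and -0.08 (SE 0.18) in the validation set. *CD69*, which pulls S1PR1 from the cell surface, had 0.29 (SE 0.42) and 0.52 (SE 0.36), and *SPHK2*, a kinase that makes the lipid, had 0.17 (SE 0.34) and -0.11 (SE 0.25). The median of the list was 0.23 and -0.05, and the latter was 0.02 after quantile normalization.

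Of the chemokines that these receptors bind, 3 of 11 tested were higher in the experimental set and none lower, and 4 of 12 were higher and 1 lower in the validation set. Over all gene names 10.3% and 44.2% passed, 6.28% and 20.3% being higher. These counts include *CXCL12* in the experimental and *CXCL13* in the validation set. Both passed the filter only through arrays of T1, so that their calls could hardly be other than higher. *CXCL8*, the neutrophil attractant bound by CXCR2, was 12.3-fold higher in the experimental set (adjusted p = 0.00393) and 10.8-fold in the validation set (adjusted p = 5.97e-05 by limma). The size depended on how background was handled. These log2 changes of 3.62 and 3.44 were 1.19 and 1.26 with normexp and quantile normalization, and 2.04 and 2.05 with the authors' values, all past the threshold. *CCL15*, a ligand of CCR1 by the array's annotation, was 5.87-fold (adjusted p = 0.00485) and 4.60-fold higher (adjusted p = 6.58e-05). *CCL5*, a product of T cells and NK cells bound by CCR1, was lower in the validation set (log2 change -0.99, SE 0.29, adjusted p = 0.00879) and had -1.19 (SE 0.34, adjusted p = 0.0592) in the experimental set. *CCL3* was higher in the validation set (0.62, SE 0.23, adjusted p = 0.0315) and *CXCL16*, the CXCR6 ligand, had 0.34 (SE 0.32) and 0.05 (SE 0.16). *CCL19*, bound by CCR7, had -0.12 (SE 0.32) and -0.22 (SE 0.20).

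*CXCL12*, the CXCR4 ligand, was called higher in the experimental set, where its arrays of T0 were not well above background. Against that background it was at least 2.70-fold higher, a bound for the signal used here only. In the validation set its log2 change was -0.25 (SE 0.46; adjusted p = 0.693 by limma). *CXCL13*, the ligand of CXCR5, was called higher in the validation set, where its arrays of T0 were likewise dim. The fold found in the same way was 1.87, but only 7 of the 13 arrays of T1 were well above background, so it is no strict minimum. Both were named after their values were seen. With normexp and quantile normalization their changes were 0.09 (adjusted p = 0.481) and 0.13 (adjusted p = 0.0638). With the authors' values they were 0.15 (adjusted p = 0.52) and 0.33 (adjusted p = 0.0445). *CXCL9*, *CXCL10* and *CXCL11*, the ligands of CXCR3, were too dim to be tested in either set.

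Genes of receptor signalling and desensitisation were higher for 5 of 20 tested in the experimental set and for 9 of 20 in the validation set, and lower for none. Over all gene names 10.3% and 44.2% passed, 6.28% and 20.3% being higher. *RGS1*, *RGS2* and *RGS18*, which shorten G protein signals at such receptors, were 6.57-fold, 4.51-fold and 4.31-fold higher in the experimental set (adjusted p = 0.0166, 0.0129 and 0.0079). In the validation set they were 4.61-fold, 3.28-fold and 4.51-fold higher (adjusted p = 0.00105, 3.12e-06 and 1.84e-06 by limma). *PTK2B*, a kinase active in leukocyte migration, was 5.31-fold and 3.78-fold higher (adjusted p = 0.007 and 0.000308), and the G protein subunit *GNG2* 2.55-fold and 1.92-fold (adjusted p = 0.0454 and 4.93e-05). The subunit *GNB1* was higher in the validation set (log2 change 0.69, SE 0.14, adjusted p = 0.000538) and had 0.98 (SE 0.32, adjusted p = 0.0843) in the experimental set. *WIPF1*, *RAC2* and *RGS19*, the other bright genes of the list, had changes between -0.25 and 0.42 and passed in neither set. Under the other ways of processing 0 to 9 of the list were called in the experimental set and 8 to 10 in the validation set. *GNG2*, *RGS1* and *RGS2* kept their direction but not the experimental call with normexp and quantile normalization (adjusted p = 0.0915, 0.102 and 0.0722). The log2 change of *RGS1*, 2.72 in the experimental and 2.20 in the validation set as reported, was then 1.18 and 1.14. With quantile normalization alone *GNG2* was lost as well (adjusted p = 0.0699).

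**Figure D4:**
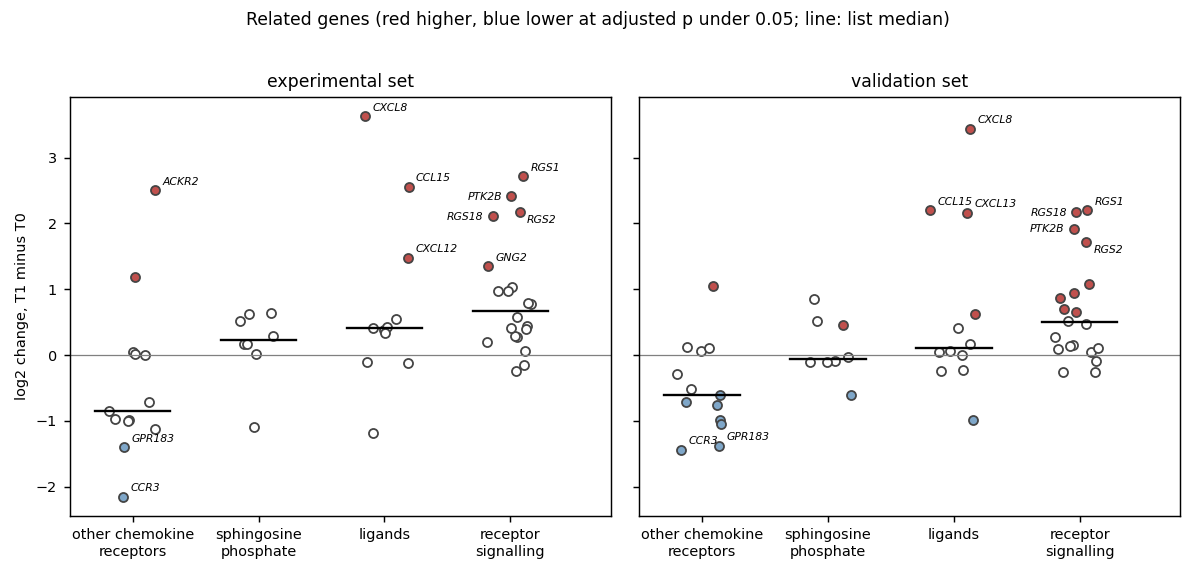
Log2 change (T1 minus T0) of each gene tested in 4 related lists, in the experimental set (left) and the validation set (right). Red points were higher and blue points lower at an adjusted p under 0.05, open points did not pass, and the black line is the median of the list. The medians of the other chemokine receptors lie at -0.84 and -0.61, and those of the signalling genes at 0.67 and 0.50.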

How the data were processed

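RNA of whole blood was labelled with Cy3 and hybridised by the authors to equine custom arrays, 1 colour per array. The deposited scanner files hold background-subtracted intensity (processed signal) from Agilent Feature Extraction 10.7.3.1, per the file headers, which name the build EquCab1. The authors also deposited a table of normalized log2 values, used as an alternative. Its columns had medians near 7.09 and a Spearman correlation of at least 0.973 with the log2 signal of their own array, so the scale is known but the normalization is not given in the sources used here.

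Of 43803 spots that were not controls, 386 outlier spots were left out, and 43384 probes gave 24415 gene names. The log2 signal was centred on the array's 75th percentile, and the brightest probe over the 26 arrays stood for a gene. Gene names with a missing value on any array of a comparison were dropped. Tests used limma 3.58.1 in R 4.3.3 (statmod 1.5.0 for random blocks), with Benjamini-Hochberg adjustment and a threshold of 0.05, and were tested on simulated data. The experimental fit had the horse as a fixed block, since the labels give both samples the same animal number. Deviations from the group means correlated at -0.00866, 0.213 and 0.191 within horses 2, 32 and 41. A probe dim on every array of a group gave only a bound, which holds for this signal and not for other background corrections. The bound used the mean of all arrays of the other group, also of those not well above background. The 431 saturated spots lay on 1 array (validation horse 34, T1) and none belonged to a receptor. Precision is limited by how few arrays there are. The T0 and T1 arrays of an experimental horse never shared a slide or a day of scanning. P-values of the experimental set measure the spread of the changes within its horses, with that between slides and days in it. Those of the validation set measure the spread between its horses.

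Values are given for the receptors, and of the related lists for genes past the threshold in both sets and at most the 4 brightest others. Receptors and lists were chosen with earlier results of these data known. Alternatives changed the background correction, normalization, filter, probe summary, block, batch terms, sex and the horses included. Cell marker levels are means over the list's genes well above background on at least 3 arrays.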

Additional observations from a re-analysis of the deposited data

Results flagged for a closer look

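The *CX3CR1* level of validation horse 47 at T0, -5.01, lay far from those of the other horses of that group. Its gap to the nearest of them was 0.679 of the range of the 7 horses, above the critical value of 0.568. Groups were checked for 8 receptors, and chance alone gives such a gap in about 1 in 20 groups. The same array had a T cell marker level of 0.27 and an NK and cytotoxic cell marker level of -0.84, both the lowest at T0, and neutrophil and red cell marker levels of 4.19 and 3.03, both the highest at T0. Their part in the low *CX3CR1* level was not tested.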

How the results depend on the processing

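Of the receptors, 2 were called in the experimental set as reported. The number was 0 with normexp and quantile normalization, with the authors' log2 values and with no filter, and 1 with all 26 arrays fitted together. Leaving out 1 horse gave 0 to 2, with 0 without horse 2 or without horse 32. In the fit with no replicate block 1 was called, as *CX3CR1* was lost (adjusted p = 0.0959). In the validation set 2 were called, but 1 with the filter on every array, where *CX3CR1* was not tested, and 1 among geldings, where *CXCR3* was lost. Without the filter 3 were counted there, but the third, *CCR6*, had no array of T1 well above background. In the difference between the sets 0 were called under all 11 alternatives. *CXCR3* and *CX3CR1* were lower under all alternatives that tested them in both sets, from -1.97 to -1.01 and from -2.14 to -0.25 in the experimental set and from -1.85 to -0.74 and from -1.82 to -0.21 in the validation set.

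Values that did not pass the test changed sign as follows, and the cause was not tested. For *CCR2* in the experimental set the mean of the probes gave -0.0068, scan day as a random block -0.048, and leaving out 1 horse -0.33 to 0.60. For *S1PR1* in the validation set normexp with quantile normalization gave -0.0030, quantile normalization -0.10, the authors' values -0.015 and geldings -0.0058. The difference between the sets changed sign for 7 of the 8 receptors, *S1PR1* being the exception. With normexp and quantile normalization it was -0.0082 for *CXCR4*, -0.018 for *CCR6*, -0.023 for *CXCR6* and -0.020 for *CCR1*, and with the authors' values it was -0.022, -0.058, -0.035 and -0.075 in the same order. Quantile normalization gave -0.12 for *CXCR6* and -0.11 for *CCR1*. Leaving out 1 horse gave -0.057 to 0.37 for *CXCR4*, -0.23 to 1.79 for *CCR6*, -0.47 to 0.32 for *CXCR3*, -0.47 to 0.85 for *CXCR6*, -0.31 to 0.80 for *CCR1*, -0.63 to 0.30 for *CCR2* and -0.61 to 0.044 for *CX3CR1*. Without horses 34 and 47 it was 0.10 for *CXCR3*, -0.00064 for *CCR1* and 0.023 for *CX3CR1*.

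Over all gene names the experimental count of 1799 was 62 with no filter, 2842 with the filter on every array, 2707 with all arrays fitted together, 5123 with scan day as a random block, and 239, 694 and 3164 without horses 2, 32 and 41. The validation count of 7670 was 3438 among geldings. Dim receptors (*CCR6*, *CXCR6*, *CCR1*) are limited by signal near background.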
